A study of Mus musculus with 30 samples.

Results

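The proteasome genes measured here were taken as all array rows that name a single gene whose symbol is Psma, Psmb, Psmc, Psmd or Psme followed by a digit, with pseudogenes left out. This gave 43 genes on 49 rows, of 19938 genes on 21789 rows naming 1 gene. The choice used symbols and no measured value. Symbols that begin alike but fall outside it were Psmc3ip, Psme3ip1 and a row naming both Psme2 and Psme2b. The 43 genes fall into 10 classes by role, and 5 of them (Psma3, Psma5, Psmb3, Psmc1 and Psmd2) had more than 1 row, of which the row with the highest mean was used.

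The study compared naive CD8+ T cells (TN, Ly5.1 Pmel-1 Tg) with memory CD8+ T cells differentiated in vitro (TMem, Ly5.2 Pmel-1 Tg). Pmel-1 is a T cell receptor transgene, carried by the cells of every group, so all groups share it and 1 receptor specificity. The mice were adult C57BL/6 of 6 to 12 weeks, given as female, and spleen was the source. Cells were profiled unstimulated (0 h) or after 18 h or 96 h in culture with IL-2 and antibodies against CD28 and CD3. In culture, TN and TMem were kept apart (alone) or put together (mix) and then separated by sorting. Each of the 10 groups had 3 arrays, which the series calls biological repeats: TN alone and TMem alone at 0 h, 18 h and 96 h, and TN mix and TMem mix at 18 h and 96 h. The labels do not name the animals behind a repeat. Values are log2 probe set values, and every difference below is a difference of log2 group means with its standard error from limma, n = 3 arrays a group. A gene is called, and said to have risen or fallen, at an adjusted p under 0.05 (Benjamini-Hochberg over 19938 genes).

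The proteasome is the protease that degrades proteins tagged with ubiquitin. Its barrel-shaped core is built of alpha rings (Psma genes) and beta rings (Psmb genes), and a cap of ATPases (Psmc) and other subunits (Psmd) binds the tagged protein, unfolds it and feeds it into the core. Psmb5, Psmb6 and Psmb7 are the catalytic subunits of most tissues. Interferon gamma induces their replacements Psmb8, Psmb9 and Psmb10, which form the immunoproteasome and change the peptides that reach MHC class I, and also Psme1 and Psme2, which form a ring-shaped activator of the core. Lymphocytes carry much immunoproteasome without added interferon.

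Promoters of some genes are shown first, from RefSeq (GRCm38.p6), and each one shown holds a match to a motif searched. In TMem at 18 h the immunoproteasome genes fell while the constitutive catalytic genes Psmb6 and Psmb7 rose. The promoter of Psmb10, which fell too, had no match to any of the motifs and is not shown. For Psmb7 no promoter was at hand, and Psmb5, which is shown, was not called in TMem at 18 h. Any relation of matches to rises and falls was not tested. Psmb9 lies on chromosome 17 beside Tap1, the peptide transporter gene, then Psmb8, then Tap2. Psmb9 and Tap1 run away from each other, and their starts lie 225 bases apart. The sequence from chr17:34187331-34187555 (minus strand) is that shared interval, read towards Psmb9, and its capitals mark a match to CCAAT on the other strand. The Psmb8 sequence, chr17:34198075-34198194 (plus strand), ends at the gene's start, as do the others, and its capitals mark a match to TTCNNNGAA, the letters of a STAT element. The constitutive genes Psmb5 at chr14:54617996-54618115 (minus strand) and Psmb6 at chr11:70525237-70525356 (plus strand) have in capitals a match to TGACNNNGC, the letters of an element bound by NFE2L1, the factor that drives proteasome genes. Psma2, the alpha gene that differed most between mixed and separate TN cultures at 18 h, is shown at chr13:14613122-14613241 (plus strand), with a match to CCAAT in capitals.
Psmb9: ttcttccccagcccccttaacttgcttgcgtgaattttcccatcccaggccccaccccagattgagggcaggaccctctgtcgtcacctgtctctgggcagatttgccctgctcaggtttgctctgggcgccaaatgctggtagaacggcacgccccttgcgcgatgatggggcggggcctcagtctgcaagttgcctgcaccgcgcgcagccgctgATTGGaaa
Psmb8: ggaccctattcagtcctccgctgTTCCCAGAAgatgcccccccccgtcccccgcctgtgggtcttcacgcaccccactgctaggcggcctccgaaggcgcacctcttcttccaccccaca
Psmb5: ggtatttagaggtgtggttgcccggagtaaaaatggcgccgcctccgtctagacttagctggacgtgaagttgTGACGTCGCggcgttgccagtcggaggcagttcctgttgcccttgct
Psmb6: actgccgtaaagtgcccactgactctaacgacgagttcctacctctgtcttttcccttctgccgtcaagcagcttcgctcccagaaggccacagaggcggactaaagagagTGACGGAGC
Psma2: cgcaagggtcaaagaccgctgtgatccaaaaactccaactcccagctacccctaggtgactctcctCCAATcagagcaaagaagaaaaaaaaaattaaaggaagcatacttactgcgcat

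RefSeq promoters, from 250 bases before to 50 after the start, were taken for 36 of the 43 genes. Any member promoter on chromosome 18, where Psma8 lies, was left out. This gave 39 member promoters in all. Searched on both strands, TGACNNNGC was in 15.4% of them (Psmb5, Psmb6, Psmc6, Psmd9, Psmd12 and Psme4) against 12.4% of all 32851 promoters. TTCNNNGAA was in 5.13% (Psmb8 and Psmd2) against 8.3%. The interferon response element, searched as GAAA, any 2 bases and GAAA again, was in 10.3% (Psmb3, Psmd4, Psmd9 and Psme1) against 3.44%. CCAAT was in 35.9% against 37.4%. These are letter matches in a short window and were not tested.

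Before the results, some arrays went against their labels or stood apart. All 30 arrays are labelled female, yet 24 carried signal of the 3 measured Y-linked genes (Eif2s3y, Uty and Kdm5d) above every TN alone array of 0 h and 96 h. Their mean level was 4.45 to 4.90 in TN alone at 0 h and 96 h, 7.50 to 7.61 in TN alone at 18 h, 7.49 to 7.56 in TN mix at 18 h, 7.12 to 7.47 in TN mix at 96 h and 8.34 to 9.02 in TMem. Xist, the transcript of the inactive X chromosome, was 4.99 to 6.02 on the TMem arrays and 9.34 to 12.11 on the TN arrays, so TN at 18 h and TN mix at 96 h carried both signals. TN alone at 18 h against 0 h or 96 h, and TN mix against TN alone at 96 h, therefore differ in this signal as well. Comparisons of TMem with TN do too, and these also differ in Xist. The difference in response at 18 h, TMem minus TN, carries the signal likewise. So do the mixing effect at 96 h, TMem minus TN, and the change of the TN mixing effect from 18 h to 96 h. In all of these the effects cannot be told apart. TN mix and TN alone at 18 h had like levels of the Y-linked signal. TN alone 0 h replicate 1 stood apart: its proteasome genes averaged 0.34 above the other 2 arrays of its group. The CD8 T cell markers Cd8a, Cd8b1, Cd3d, Cd3e and Cd3g averaged 11.05 to 12.38 on every array. Of 19 listed markers of other cells 18 were measured, and their calls are given with the comparisons. In bulk RNA, fewer cells of a type and less RNA per cell cannot be told apart.

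The level of the proteasome genes differed with the time after stimulation. By group mean, 22 of the 43 genes were highest in TN mix at 18 h and 8 in TMem mix at 18 h. The lowest mean was in TN at 0 h for 17 genes and in TMem at 0 h for 15. The heatmap of group means shows most core and cap genes above TN 0 h at 18 h, and Psmb8, Psmb9 and Psmb10 below it. Psma8, the alpha subunit of testis, had group means of 5.61 to 5.89, near the arrays' lower quartile of 5.58 to 5.77, and Psmb11, the catalytic subunit of thymic epithelium, 6.10 to 6.74. These 2 genes and Psmc3, a cap ATPase, were called in no comparison.

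**Figure D1:**
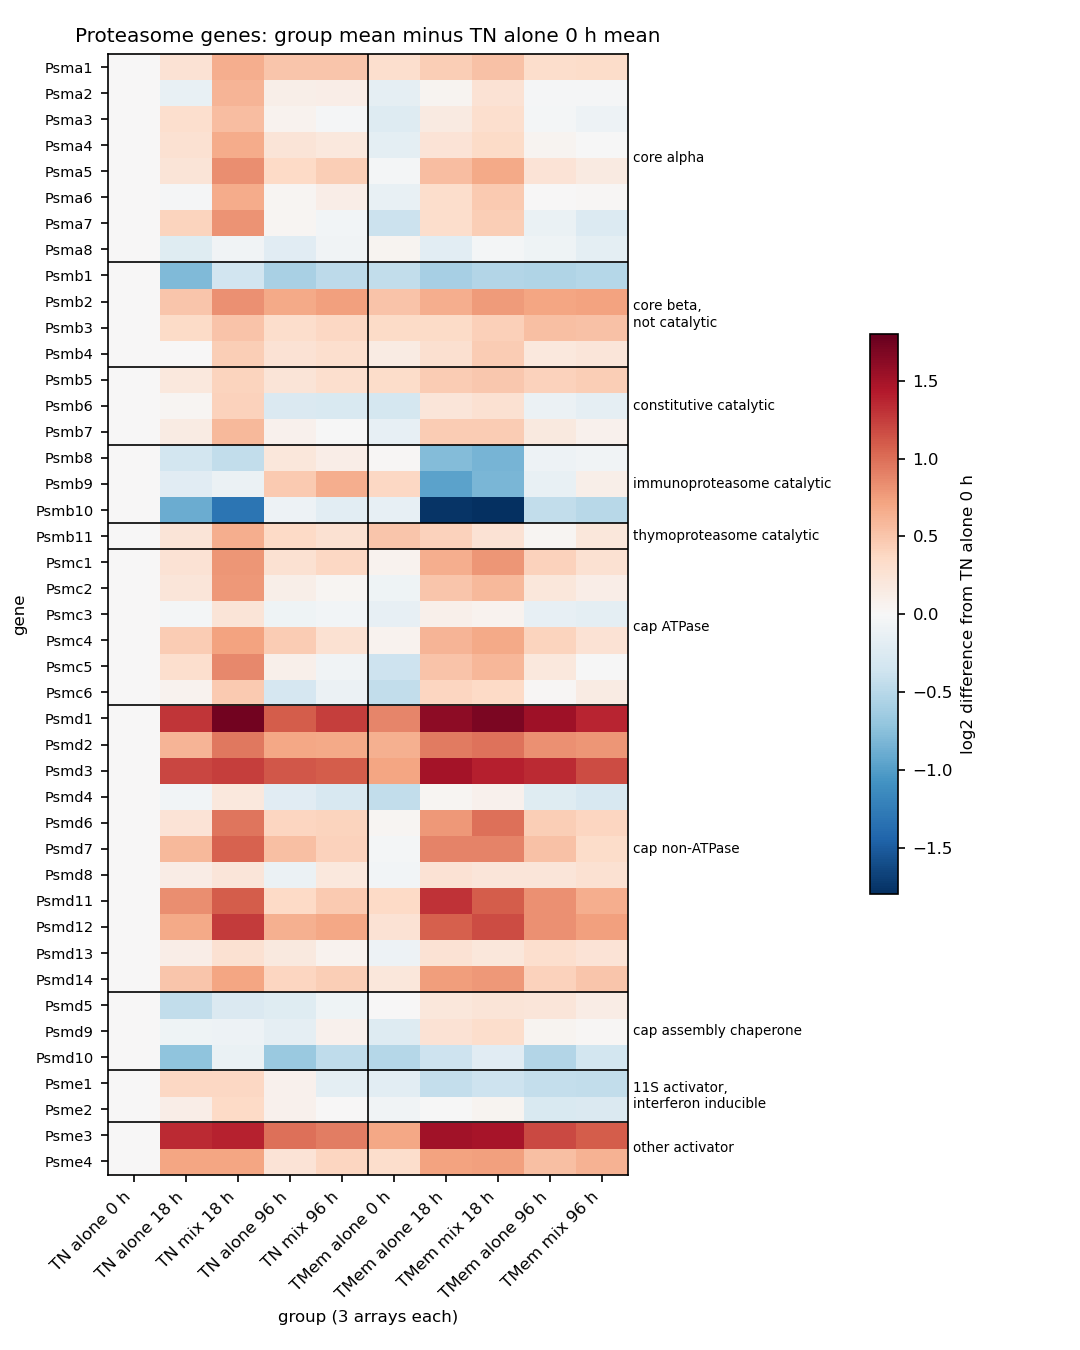
Each cell is the mean log2 value of a gene (rows, by class) over the 3 arrays of a group (columns), minus its mean in TN alone 0 h, red for higher and blue for lower. Psmd1, Psmd3 and Psme3 are red in every group after 0 h, while Psmb8, Psmb9 and Psmb10 are darkest blue in TMem at 18 h.

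In TN at 18 h, 8 of 17 cap subunits rose, as did Psme3, Psme4 and Psme1, while the immunoproteasome genes Psmb10 and Psmb8 fell, with Psmb8 losing its call without 1 array. Of the 43 genes, 15 rose and 5 fell, against 17.1% of all genes called higher and 16.7% called lower (33.8% in all). The members' median difference was 0.23, and that of all genes -0.02. Psme3, which forms a nuclear activator of the core, went from 9.85, 9.77 and 9.74 at 0 h to 11.13, 11.14 and 11.13 at 18 h. The arrays were far apart, and the difference was 1.35 ± 0.06 (limma adjusted p = 1.59e-15). Psmd1, the large scaffold subunit of the cap, was 9.80, 9.80 and 9.84 at 0 h and 11.14, 11.05 and 11.08 at 18 h, a rise of 1.28 ± 0.09. Psmd3, another scaffold-like cap subunit, rose by 1.21 ± 0.08, from 8.98, 9.05 and 8.89 to 10.12, 10.21 and 10.21. Of 17 cap subunits 8 rose and none fell, among them Psmd11 (0.84) and the ATPase Psmc4 (0.46). The second activator gene outside the interferon-inducible pair, Psme4, rose by 0.71 ± 0.14.

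Of the core genes in TN at 18 h, Psmb2 (0.50), Psma7 (0.39), Psmb3 (0.35) and Psma3 (0.31) rose, and Psmb1 fell. Psmb1, a structural beta subunit, was 11.12, 10.36 and 10.45 at 0 h and 9.89, 9.72 and 9.95 at 18 h, a fall of 0.79 ± 0.15 with no overlap. Psmd10 and Psmd5, chaperones that assemble the cap's ATPase ring and leave it again, fell by 0.72 and 0.45. Without TN alone 0 h replicate 1 Psmd5 differed by -0.19 (adjusted p = 0.175), Psme4 rose by 0.44, Psma7 by 0.66 and Psma3 by 0.51. The constitutive catalytic genes were not called: Psmb5 differed by 0.18 ± 0.11, Psmb6 by 0.04 ± 0.11 and Psmb7 by 0.15 ± 0.15.

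Psmb10 in TN was 11.20, 10.83 and 10.89 at 0 h and 9.92, 10.23 and 10.09 at 18 h. The groups did not overlap, and it fell by 0.90 ± 0.15, a 1.86-fold lower level (limma adjusted p = 1.8e-05). Psmb8 was 10.16, 9.78 and 9.79 at 0 h and 9.40, 9.66 and 9.67 at 18 h, and it fell by 0.33 ± 0.12 (adjusted p = 0.0353). That call rested on the array that stood apart: without TN alone 0 h replicate 1 the Psmb8 difference was -0.21 (adjusted p = 0.258). Psmb9 was 11.41, 11.05 and 11.06 against 10.94, 11.01 and 10.94, a difference of -0.21 ± 0.10 that did not pass (adjusted p = 0.118). Psme1 rose by 0.38 ± 0.13, from 10.81, 11.25 and 11.22 to 11.45, 11.48 and 11.49. Without the same array it differed by 0.24 (adjusted p = 0.194). Psme2 was not called (0.12 ± 0.10). Without that array 23 of the 43 genes rose and 3 fell, 17 of the calls being shared, and Psmb5 (0.31) and Psmb7 (0.41) then passed as well. Of the 18 other-cell markers, 2 were called higher (Cd68 and Izumo1r) and 3 lower (Cd79b, Ncr1 and Klrb1c), and their part in the result was not tested.

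In TMem most cap genes and the alpha genes named here rose while the immunoproteasome genes fell. At 18 h against 0 h, 26 of the 43 genes rose and 3 fell, against 18% of all genes called higher and 17.3% called lower (35.3% in all). The members' median was 0.41 and that of all genes -0.09. All 11 non-ATPase cap subunits rose, as did 5 of 6 ATPases. The arrays of the groups did not overlap for 29 of the 43 genes and for 43.5% of all genes. Psmc5, a cap ATPase, was 8.26, 7.85 and 8.24 at 0 h and 8.97, 9.04 and 9.01 at 18 h, a rise of 0.89 ± 0.15. Psmd11, which helps join cap and core, rose by 0.95 ± 0.10, from 9.69, 9.49 and 9.68 to 10.56, 10.56 and 10.58. Psmd7, a partner of the deubiquitinating subunit Psmd14, rose by 0.93 ± 0.09. Of the alpha genes 5 of 8 rose, led by Psma7 (0.69 ± 0.15) and Psma5 (0.59 ± 0.18). None of the 4 structural beta genes was called. Psme3 rose by 0.82 ± 0.06 and Psme4 by 0.41 ± 0.14.

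The constitutive catalytic genes Psmb7 and Psmb6 rose in TMem by 0.61 ± 0.15 and 0.55 ± 0.11, and Psmb5 did not pass (0.13 ± 0.11). Their immunoproteasome counterparts all fell. Psmb10 was 10.73, 10.51 and 11.25 at 0 h and 8.93, 9.45 and 9.24 at 18 h, a fall of 1.62 ± 0.15 or 3.08-fold (limma adjusted p = 6.76e-10). Psmb9 was 11.42, 11.41 and 11.79 at 0 h and 10.08, 10.36 and 10.18 at 18 h, a fall of 1.34 ± 0.10 or 2.53-fold. Psmb8 was 9.85, 9.67 and 10.25 against 8.95, 9.16 and 9.27, a fall of 0.80 ± 0.12 or 1.74-fold. In all 3 genes every array at 18 h was below every array at 0 h.

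The activator pair did not move with them in TMem: Psme1 differed by -0.24 ± 0.13 and Psme2 by 0.06 ± 0.10, neither called. TMem alone 0 h replicate 3 was the highest of its group for Psmb8, Psmb9, Psmb10, Psme1 and Psme2. Without it the falls at 18 h were 1.41 for Psmb10, 1.22 for Psmb9 and 0.64 for Psmb8 on the log2 scale, all still called, while the cap subunit Psmd2 lost its call (0.21, adjusted p = 0.0666). Of the other-cell markers 6 were called lower in TMem at 18 h (Cd79b, Foxp3, Klrb1c, Cpa3, Mcpt8 and Fcer1a) and none higher, and the mean of the mast cell and basophil markers was 6.76 to 7.73 at 0 h and 5.37 to 5.49 at 18 h. Their part in the result was not tested.

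**Figure D2:**
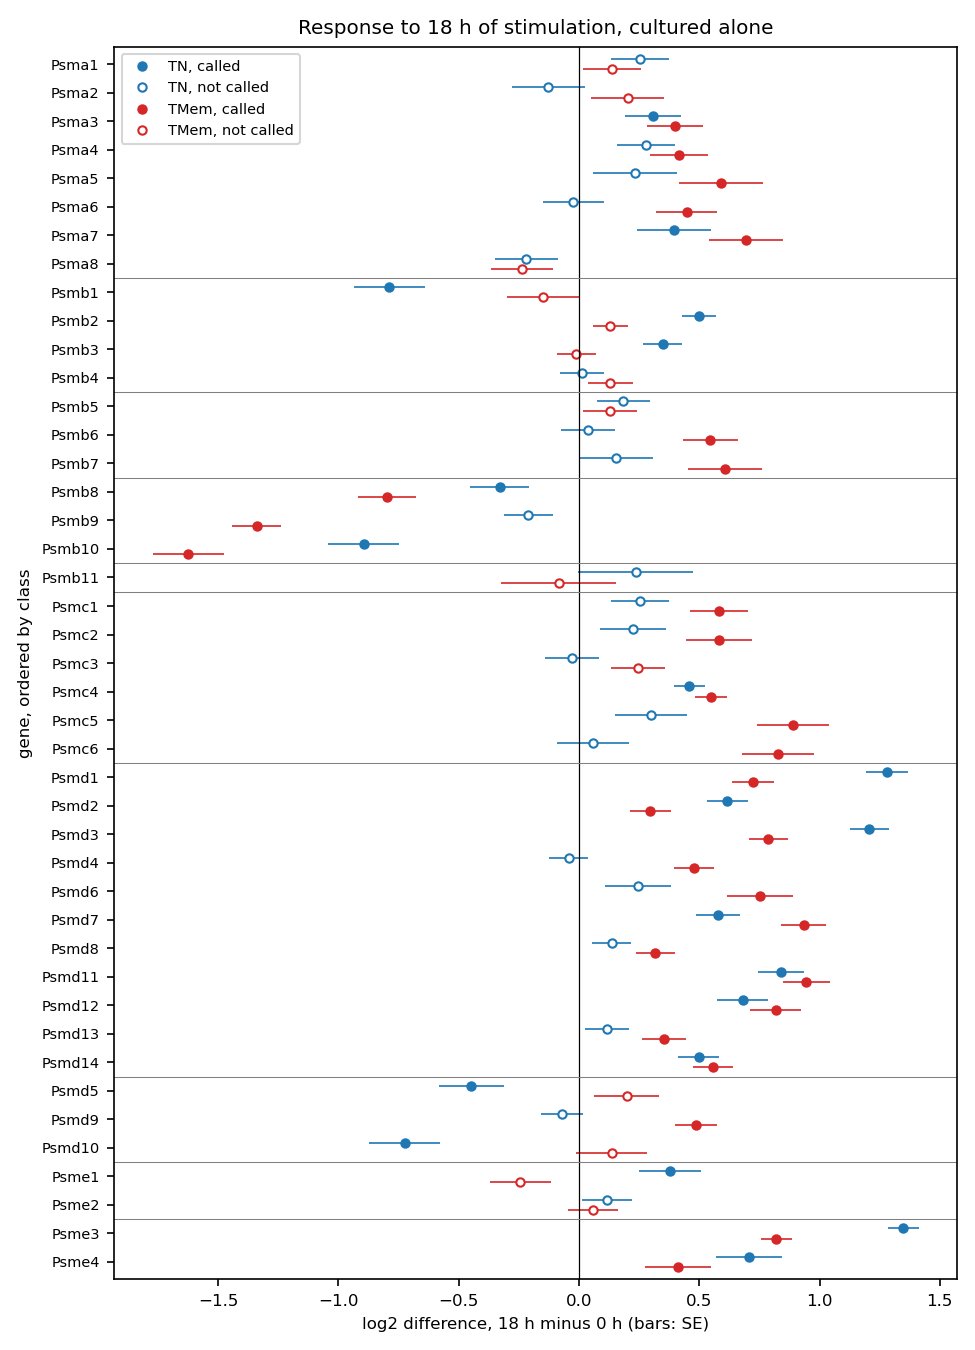
Log2 difference between 18 h and 0 h (horizontal axis) for each gene (vertical axis, ordered by class) in TN (blue) and TMem (red) cultured alone, n = 3 arrays a group, bars standard errors, filled points called. Psmb8, Psmb9 and Psmb10 lie left of 0 in both cell types and farther left in TMem, at -0.80, -1.34 and -1.62.

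The difference between the responses was tested itself, as TMem minus TN. It was called higher for 10 genes and lower for 10, against 14.2% and 14.7% of all genes. Of the other-cell markers 1 was called higher in this difference and 5 lower, and their part was not tested. The difference was called lower for the 3 immunoproteasome catalytic genes: Psmb9 (-1.13 ± 0.14, limma adjusted p = 5.62e-07), Psmb10 (-0.73 ± 0.21) and Psmb8 (-0.47 ± 0.17). In TN itself Psmb9 had not been called at 18 h, and the call of Psmb8 rested on 1 array. Psme1 was lower in this difference too (-0.62 ± 0.18). On the other side stood all 3 cap assembly chaperones, Psmd10 (0.86 ± 0.21), Psmd5 (0.65 ± 0.19) and Psmd9 (0.56 ± 0.12), and the ATPases Psmc6 (0.77 ± 0.21) and Psmc5 (0.59 ± 0.21). Psmb6 (0.51) and Psmb1 (0.64) were higher. The genes with the largest rises in TN rose less in TMem, with Psmd1 at -0.56 ± 0.12, Psme3 at -0.53 ± 0.09 and Psmd3 at -0.42 ± 0.12. These 3 already differed at 0 h, as given below for the unstimulated cells. Without TN alone 0 h replicate 1 the count was 5 higher and 9 lower. Psmb1, Psmb6, Psmc5, Psmd2, Psmd6 and Psmd7 then lost the call, and the 3 immunoproteasome genes kept it. Without TN alone 18 h replicate 2, and likewise without TMem alone 18 h replicate 2, 13 genes were called. In the fit of the 4 groups compared alone, 8 were.

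The immunoproteasome catalytic genes Psmb8, Psmb9 and Psmb10 rose between 18 h and 96 h in both cell types. From 18 h to 96 h in TN, 3 members rose and 4 fell, against 11.3% and 13.1% of all genes. The 3 that rose were Psmb10 (0.81 ± 0.15), Psmb9 (0.68 ± 0.10) and Psmb8 (0.53 ± 0.12). TN alone at 96 h read 10.86, 10.98 and 10.83 for Psmb10 and 10.14, 10.13 and 10.05 for Psmb8, which overlapped the 0 h arrays. Psmb9 at 96 h, at 11.60, 11.64 and 11.68, was above every 0 h array. The 4 that fell were Psmd11 (-0.48), Psme4 (-0.46), Psme3 (-0.35) and Psmd8 (-0.24). Psme1 did not pass (-0.30 ± 0.13, adjusted p = 0.0876). Over the same interval 7 other-cell markers were called higher in TN (Cd79b, Lyz2, Foxp3, Ncr1, Klrb1c, Cpa3 and Mcpt8), and their part was not tested.

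In TMem from 18 h to 96 h, 3 members rose and 8 fell, against 14.6% and 9.87% of all genes. The rises were again Psmb10 (1.32 ± 0.15), Psmb9 (0.84 ± 0.10) and Psmb8 (0.69 ± 0.12), and every array at 96 h was above every array at 18 h. Of the other-cell markers Cd68, Klrb1c, Cpa3 and Mcpt8 were called higher and Izumo1r lower over this interval, and their part was not tested. The 8 falls included Psmd11 (-0.48), Psma7 (-0.43), Psmd7 (-0.36), Psmb6 (-0.33), Psme3 (-0.32) and Psmc4 (-0.21). Without TMem alone 96 h replicate 1, TMem alone 18 h replicate 2 or TMem alone 18 h replicate 3, 7 members were called, and with each array centred on its median 3 rose and 14 fell.

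Set against 0 h, with 7 other-cell markers called higher and none lower, TN at 96 h had 15 members higher and 2 lower (18.6% and 17.9% of all genes). Psmd3 (1.11 ± 0.08), Psmd1 (1.09 ± 0.09), Psme3 (1.00 ± 0.06) and Psmb2 (0.68 ± 0.07) were still up, Psmb9 was higher by 0.47 ± 0.10, and Psmd10 (-0.67) and Psmb1 (-0.58) were lower. With each array centred on its median the split was 12 and 5. TMem at 96 h had 15 members higher and 1 lower against 0 h (16.1% and 8.44% of all genes), beside 2 other-cell markers called higher and 5 lower. Psmd1 (0.65), Psmd3 (0.64), Psmd7 (0.57), Psmc5 (0.57) and Psme3 (0.50) were higher. The lower gene was Psmb9 (-0.50 ± 0.10), with 11.03, 10.996 and 11.10 at 96 h below every 0 h array. None of the 14 constitutive core genes other than Psma8 was called in TMem at 96 h against 0 h, and 13 of 17 cap subunits rose. Comparisons within a cell type share arrays with each other, so their values are given side by side and not related.

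**Figure D3:**
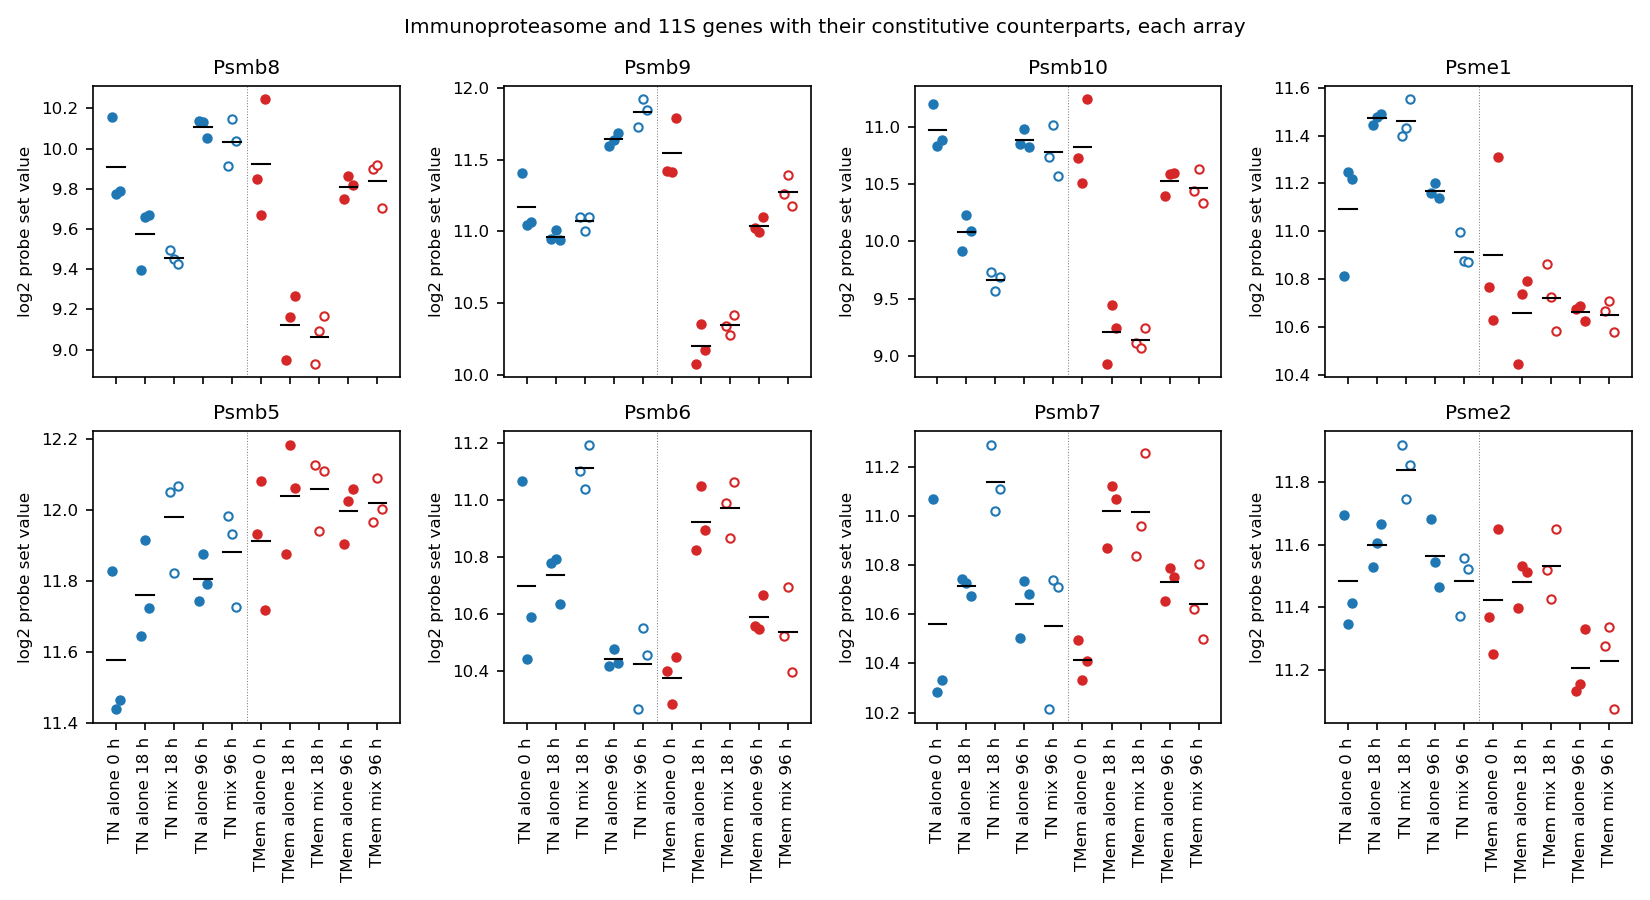
Log2 probe set value (vertical axis) of each array in the 10 groups, for the immunoproteasome genes (upper row), their constitutive counterparts (lower row) and the activator pair Psme1 and Psme2 (right), TN in blue, TMem in red, open circles for mix, bars group means. In the TMem panels Psmb8, Psmb9 and Psmb10 are lowest at 18 h and higher again at 96 h, while Psmb6 and Psmb7 are highest at 18 h.

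As a description over the members of a class, the mean change of Psmb8, Psmb9 and Psmb10 from TN 0 h was set against that of Psmb5, Psmb6 and Psmb7 on the same array. The immunoproteasome minus constitutive value was -0.60 ± 0.10 (SD, n = 3) in TN alone at 18 h, -1.09 ± 0.05 in TN mix at 18 h, -1.56 ± 0.05 in TMem alone at 18 h and -1.57 ± 0.05 in TMem mix at 18 h. At 96 h it was 0.18 ± 0.05 in TN alone, 0.19 ± 0.06 in TN mix, -0.39 ± 0.01 in TMem alone and -0.28 ± 0.03 in TMem mix. The 4 groups at 18 h were all below the 4 at 96 h. Of the pairs, Psmb10 minus Psmb7 moved most, to -2.23 ± 0.13 in TMem alone at 18 h, with Psmb8 minus Psmb5 at -1.25 ± 0.12 and Psmb9 minus Psmb6 at -1.19 ± 0.03. These are log2 changes of ratios between genes and say nothing of which subunit was more abundant.

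**Figure D4:**
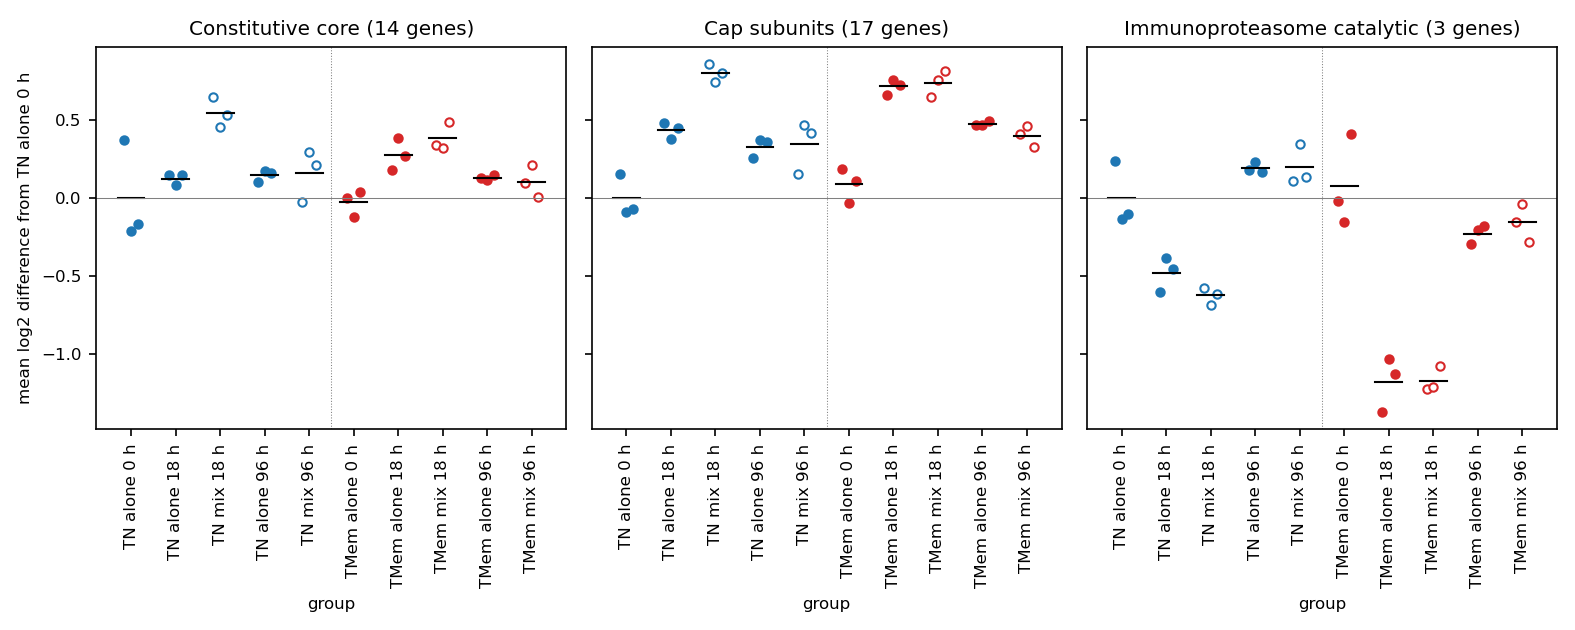
Mean log2 difference from TN alone 0 h (vertical axis) over the genes of a class on each array, for the constitutive core, the cap subunits and the immunoproteasome catalytic genes, TN in blue, TMem in red, open circles for mix, bars group means. In the core panel TN mix 18 h sits highest, at 0.55, and TN alone 0 h replicate 1 lies above its 2 group mates.

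At 18 h, core and cap genes were higher in TN cultured with TMem than in TN cultured alone. Of the 43 genes 20 were higher in TN mix than in TN alone and none lower, against 6.3% of all genes called higher and 8.15% called lower. The members' median was 0.33 and that of all genes -0.01. The arrays of the groups did not overlap for 33 of the 43 genes, called or not, and for 34.1% of all genes. Psma2 was 10.31, 10.18 and 10.30 alone and 11.17, 10.88 and 10.95 in the mix, a difference of 0.74 ± 0.15 (limma adjusted p = 0.00101), or 1.67-fold. Psmd6, a cap subunit, was 10.46, 10.13 and 10.42 alone and 11.05, 11.01 and 11.12 in the mix, higher by 0.72 ± 0.14. Psma6 was higher by 0.69 ± 0.13, from 11.50, 11.17 and 11.45 to 12.17, 11.95 and 12.06. These alpha genes had not been called in TN alone at 18 h against 0 h, where Psma2 differed by -0.13 and Psma6 by -0.02. Both values share the TN alone 18 h arrays with the mix comparison, with opposite sign. They also draw on TN alone 0 h replicate 1, the array that stood apart. At 0 h Psma2 was 10.83, 10.11 and 10.23 and Psma6 was 11.82, 11.16 and 11.20, with that array first.

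By class, the genes higher in the mix were 5 of 8 alpha genes (Psma1, Psma2, Psma4, Psma5 and Psma6), 3 of 4 structural beta genes (Psmb1, Psmb2 and Psmb4), 1 of 3 constitutive catalytic genes (Psmb6, 0.38 ± 0.11), 4 of 6 ATPases, 6 of 11 other cap subunits and 1 of 3 cap chaperones. Psmc5 (0.57 ± 0.15), Psmc2 (0.56 ± 0.14) and Psmc1 (0.54 ± 0.12) led the ATPases. Psmd12 (0.58 ± 0.11), Psmd7 (0.48 ± 0.09) and Psmd1 (0.46 ± 0.09) followed Psmd6. Psmd10, which had fallen in TN alone, was higher by 0.61 ± 0.15, with 9.52, 9.37 and 9.39 alone and 10.22, 9.82 and 10.06 in the mix. Psmb1, which had also fallen, was higher by 0.44 ± 0.15. The falls and these differences share the TN alone 18 h arrays, with opposite sign, so they are given side by side and not related.

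The immunoproteasome and activator genes were not among them. Psmb10 was 9.92, 10.23 and 10.09 alone and 9.73, 9.56 and 9.69 in the mix, lower on every mix array, with a difference of -0.42 ± 0.15 that did not pass (adjusted p = 0.0602) but did under 5 of 15 alternatives. Psmb8 differed by -0.12 ± 0.12, Psmb9 by 0.11 ± 0.10, Psme1 by -0.01 ± 0.13, Psme2 by 0.24 ± 0.10, Psme3 by 0.04 and Psme4 was likewise not called. Of the constitutive catalytic genes Psmb7 (0.42 ± 0.15, adjusted p = 0.0663) and Psmb5 (0.22 ± 0.11) did not pass. Of the other-cell markers only Izumo1r was called, lower in the mix. Without TN mix 18 h replicate 1, which had the highest Psma2 of its group, 13 members were called. Psma1, Psma4, Psma5, Psmb1, Psmb6 (adjusted p = 0.0555), Psmc5 (adjusted p = 0.0619) and Psmd4 lost the call, which left 2 alpha genes, Psma2 (0.65, adjusted p = 0.0107) and Psma6, and no constitutive catalytic gene. With each array centred on its median 24 were higher and none lower.

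**Figure D5:**
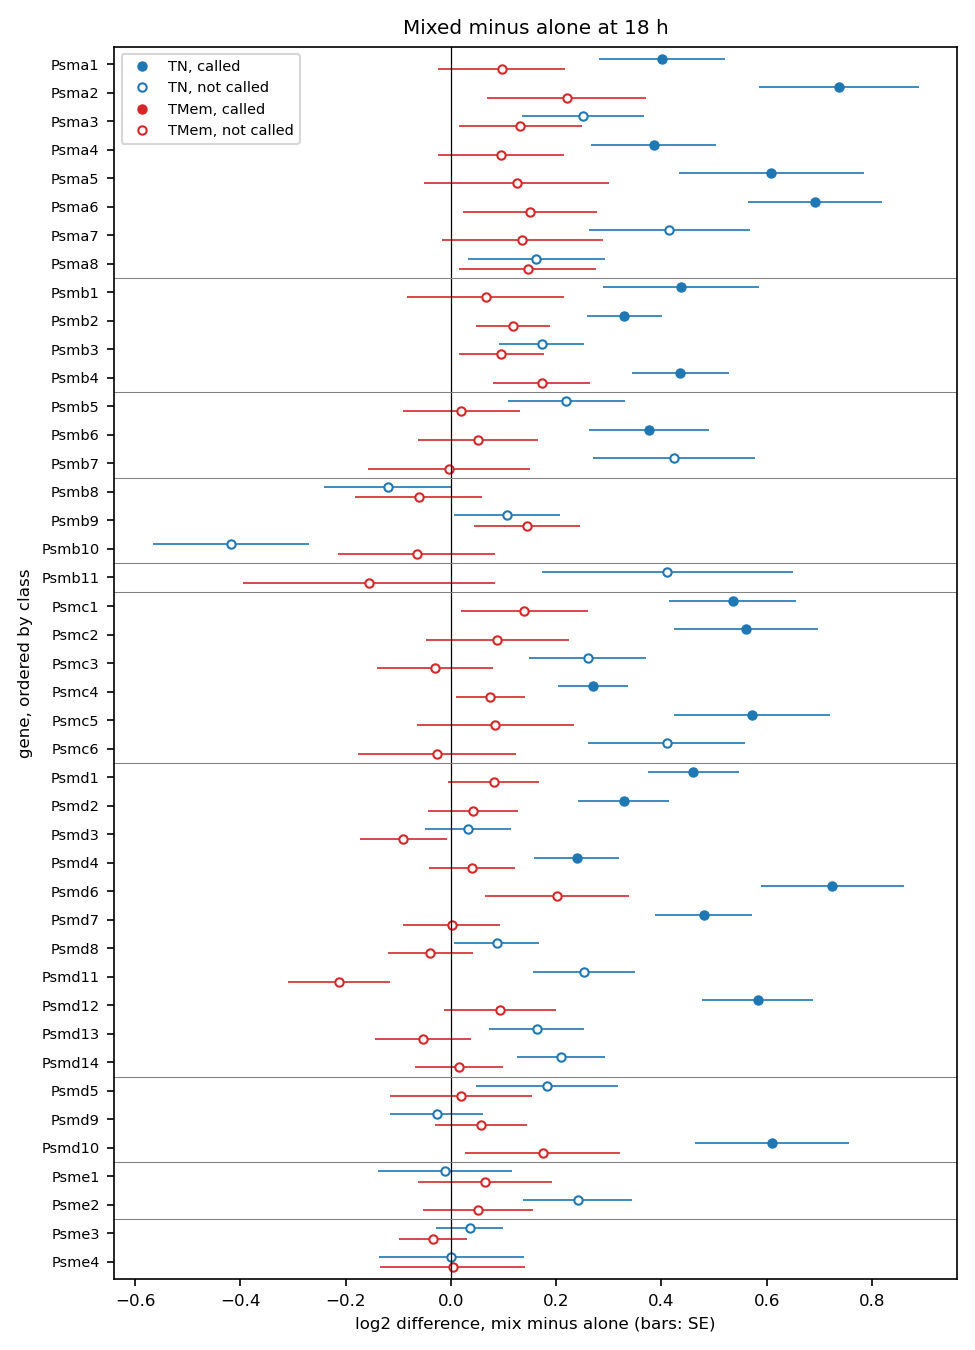
Log2 difference between mix and alone at 18 h (horizontal axis) for each gene (vertical axis, ordered by class) in TN (blue) and TMem (red), n = 3 arrays a group, bars standard errors, filled points called. The 20 filled points are all TN genes right of 0, with Psma2 at 0.74. No TMem gene is filled, in a comparison that called 0.0301% of all genes.

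In TMem, culture with TN moved no proteasome gene past the threshold. Few of all genes were called in these comparisons, so the counts of 0 say nothing particular about the members. At 18 h, 0 of 43 were called with limma (0% of all genes higher and 0.0301% lower), and 1 had an unadjusted p under 0.05. Psma2 differed by 0.22 ± 0.15, Psmd6 by 0.20 ± 0.14, Psmb10 by -0.06 ± 0.15 and Psmb9 by 0.14 ± 0.10. Of the other-cell markers none was called at 18 h, nor in the difference between the mixing effects at 18 h given below. At 96 h Cd79b was called, higher in the mix. At 96 h, 0 of 43 members were called with limma (0.968% of all genes higher and 0.15% lower, 1.12% in all), with 4 at an unadjusted p under 0.05. Psmb9 was 11.26, 11.40 and 11.18 in the mix and 11.03, 10.996 and 11.10 alone, a difference of 0.24 ± 0.10 (adjusted p = 0.536). The difference between the mixing effects at 18 h, TMem minus TN, was called for 2 members, both lower, against 1.44% of all genes lower and 3.73% higher (5.17% in all). They were Psmd7 (-0.48 ± 0.13, limma adjusted p = 0.0276) and Psmd11 (-0.47 ± 0.14, adjusted p = 0.0428). For Psma2 it was -0.52 ± 0.21 (adjusted p = 0.191), so for most of the 20 genes a difference in effect between TN and TMem did not pass here. The count of 2 moved with the fit: it was 19 with array weights, 9 in the fit of these groups alone, 9 with the 0 h arrays left out, 5 with low genes left out, 4 with each array centred on its median, 4 with trend and robust settings and 1 with the replicate numbers as a block, all of them lower in TMem minus TN. Neither was called once any 1 of 5 arrays of 18 h was left out: replicate 1 of TN mix or of TMem mix, replicate 2 of TN alone, or replicate 2 or 3 of TMem alone. Leaving out TMem mix replicate 2, TN alone replicate 1 or 3 or TMem alone replicate 1 left 1 called.

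At 96 h few members differed between TN mix and TN alone. Psmd8 alone was higher (0.30 ± 0.08, adjusted p = 0.0141) and no member lower, against 7% and 3.62% of all genes. Psmd8, a cap subunit, was 10.38, 10.54 and 10.45 alone and 10.74, 10.75 and 10.79 in the mix. With the replicate numbers as a block, 1 member was called likewise. No label ties the repeats across groups, and the numbers were taken as pairs here from correlations between arrays alone. Without TN alone 96 h replicate 1 no member was called, without TN mix 96 h replicate 1 there were 2, and with each array centred on its median none was higher and 1 lower. Here 7 other-cell markers were lower in the mix (Cd79b, Lyz2, Foxp3, Izumo1r, Ncr1, Cpa3 and Mcpt8), beside the Y-linked signal. The change of the TN mixing effect from 18 h to 96 h was itself called lower for 9 members and higher for none (4.26% and 8.16% of all genes). Psmc5 (-0.72 ± 0.21), Psma2 (-0.72 ± 0.21), Psmd6 (-0.70 ± 0.19), Psmc2 (-0.62 ± 0.19), Psma6 (-0.61 ± 0.18), Psmd7 (-0.60 ± 0.13), Psmd12, Psmc4 and Psmb4 were the 9. Their number was 5 without TN alone 96 h replicate 2, 4 when either TN mix 18 h replicate 1 or TN alone 96 h replicate 3 was left out, and 2 when either TN mix 96 h replicate 1 or TN alone 18 h replicate 2 was. It was 26 with array weights, 19 in a fit without the 0 h arrays and 16 with each array centred on its median. No member was called in the difference between the mixing effects of TMem and TN at 96 h (limma, 1.62% and 1.92% of all genes), where 4 had an unadjusted p under 0.05. The same 7 other-cell markers were called higher in that difference and lower in the change of the TN mixing effect. Their part was not tested.

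Unstimulated TMem and TN differed in single members. At 0 h, 9 members were higher in TMem and 7 lower, against 18.4% and 17.5% of all genes, and the members' median was -0.03 against 0.02 over all genes. These shares are near those of all genes, so the count says nothing particular about the members. Psmd1 was 10.83, 10.72 and 10.53 in TMem and 9.80, 9.80 and 9.84 in TN, higher by 0.88 ± 0.09. Psmd3 was higher by 0.71 ± 0.08, Psme3 by 0.69 ± 0.06, Psmd2 by 0.64 ± 0.09 and Psmb2 by 0.52 ± 0.07. Psmd4, a ubiquitin receptor of the cap, was lower (-0.44 ± 0.08), as were Psmd10 (-0.52), Psmc6 (-0.45), Psmb1 (-0.44), Psmc5 (-0.38), Psmb6 (-0.32) and Psmd9 (-0.23). Psmb5 (0.33), Psmd11 and Psmb3 (both 0.35) were higher. Psmb9 was higher by 0.37 ± 0.10, and Psmb8 (0.01) and Psmb10 (-0.15) were not called. Without TMem alone 0 h replicate 3 Psmb9 differed by 0.25 (adjusted p = 0.0556) and Psme1 by -0.40 (adjusted p = 0.00585). Without TN alone 0 h replicate 1, 14 were higher and 2 lower. Psmb1, Psmb6, Psmc5, Psmc6, Psmd9 and Psmd10 then lost the call, and Psme1 gained it (-0.33, adjusted p = 0.0496). With each array centred on its median 6 were higher and 9 lower, and in the fit of these groups alone 6 were called. Of the other-cell markers 5 were higher in TMem at 0 h and 4 lower, and their part was not tested.

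After stimulation, TMem was compared with TN at each time, alone and in the mix. Psmb9 was lower in TMem in all 4 of these comparisons. Alone at 18 h, 13 members were higher in TMem and 4 lower (15.4% and 13.5% of all genes). The lower genes were Psmb10 (-0.88 ± 0.15), Psme1 (-0.81 ± 0.13), Psmb9 (-0.76 ± 0.10) and Psmb8 (-0.45 ± 0.12), with no overlap between arrays. The higher genes included 8 non-ATPase cap subunits, such as Psmd6 (0.54) and Psmd11 (0.46), the chaperones Psmd5 (0.65) and Psmd9 (0.33), and Psmc1 (0.39), Psma6 (0.34) and Psmb4 (0.27). At 18 h, alone and in the mix alike, 1 other-cell marker was called higher in TMem and 2 lower. In the mix at 18 h, 2 were higher, Psmd5 (0.49) and Psmd9 (0.41), and 5 lower (11.8% and 8.64% of all genes, 20.4% in all). The 5 were Psme1 (-0.74 ± 0.13), Psmb9 (-0.72 ± 0.10), Psmb10 (-0.52 ± 0.15), Psmb8 (-0.39 ± 0.12) and Psme2 (-0.31 ± 0.10), that is every immunoproteasome and interferon-inducible activator gene, while with limma none of the 17 cap subunits was called (0 at an unadjusted p under 0.05). With each array centred on its median 1 was higher and 11 lower, and the all-gene median moved from 0.01 to -0.11. Psme1 in TN mix at 18 h read 11.40, 11.43 and 11.55, and in TMem mix 10.86, 10.72 and 10.58.

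At 96 h alone, 7 members were higher in TMem and 3 lower (14.1% and 8.02% of all genes). The members' shares were near those of all genes, so the count says nothing particular about the members. The lower genes were Psmb9 (-0.60 ± 0.10), Psme1 (-0.51 ± 0.13) and Psme2 (-0.36 ± 0.10). Psmb10 (-0.36 ± 0.15) and Psmb8 (-0.30 ± 0.12) did not pass, with adjusted p of 0.0872 and 0.0839. Psmd11 (0.46), Psmd1 (0.44), Psmd5 (0.44), Psmb3 (0.23) and Psme3 (0.20) were among the higher genes. Without TN alone 96 h replicate 1 or TMem alone 96 h replicate 2, 5 were called, and without TMem alone 96 h replicate 1 or 3, 6. With quantile normalization run once more 5 were higher and 6 lower. In the mix at 96 h only Psmb9 was called among members, lower by 0.56 ± 0.10 (adjusted p = 0.000256), against 6.68% of all genes higher and 3.94% lower. It was 11.26, 11.40 and 11.18 in TMem mix and 11.73, 11.92 and 11.85 in TN mix. Of the other-cell markers 7 were lower and 2 higher in TMem alone at 96 h, and 3 lower and 2 higher in the mix.

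Genes that work beside the proteasome were read from lists chosen by role, each of 5 to 9 measured genes, to be set against 33.8% of all genes called in TN and 35.3% in TMem at 18 h and 14.4% in TN mix. Of 5 measured chaperones that assemble the core, none was called in TN at 18 h, 3 rose in TMem at 18 h (Psmg2, 0.66 ± 0.10, Psmg1, 0.62 ± 0.14, and Psmg4, 0.46 ± 0.16), and 3 were higher in TN mix than alone at 18 h (Pomp, 0.55 ± 0.18, Psmg2, 0.52 ± 0.10, and Psmg1, 0.42 ± 0.14). Of 6 cap partners and inhibitors, 4 rose and 1 fell in TN at 18 h, 5 rose in TMem, and Uchl5 (0.64 ± 0.12) and Usp14 (0.51 ± 0.12), deubiquitinases of the cap, were higher in TN mix. Of 5 genes of the NFE2L1 pathway, 3 rose and 1 fell in TN at 18 h, and 2 rose and 2 fell in TMem. Nfe2l1 itself rose in TN (1.06 ± 0.08) and TMem (0.75 ± 0.08), and Ngly1, the enzyme that processes it, fell in both (-0.84 ± 0.09 and -0.93 ± 0.09). In TN mix Nfe2l1 was not called (0.20 ± 0.08) and Ngly1 was lower (-0.27 ± 0.09). Of 5 ubiquitin pathway genes 4 rose in TN and 5 in TMem, among them Vcp, the segregase that extracts tagged proteins (0.97 and 0.80), and Uba6, a ubiquitin-activating enzyme (1.06 and 0.96).

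Several genes of antigen presentation rose in TN and fell in TMem, while others were higher in both. Of 9 measured genes of MHC class I antigen processing, 7 rose in TN at 18 h, while 3 rose and 4 fell in TMem. Of all genes 17.1% rose and 16.7% fell in TN, and 18% rose and 17.3% fell in TMem. By group mean, Calr, Pdia3, Canx and Erap1 were higher at 18 h than at 0 h in both cell types. Calr went from 11.50 to 12.19 in TN and from 11.76 to 12.44 in TMem. Pdia3 went from 10.77 to 11.17 in TN and from 10.97 to 11.56 in TMem. Tap1, which shares its promoter interval with Psmb9, rose by 0.81 ± 0.10 in TN and fell by 0.77 ± 0.10 in TMem. Tapbp, which holds MHC class I to the transporter, rose by 0.87 ± 0.12 and fell by 0.54 ± 0.12, and Tap2, next to Psmb8, rose by 0.43 ± 0.09 and fell by 0.83 ± 0.09. The difference between the responses was called lower for Tap1 (-1.58 ± 0.15), Tapbp (-1.42 ± 0.17), Tap2 (-1.26 ± 0.12) and Tapbpl (-0.77 ± 0.16). Of all genes 14.7% were called lower in it and 14.2% higher. So in TN the neighbours Tap1 and Psmb9 had different values, 0.81 and -0.21, and in TMem both fell. Of 5 transcription factors of interferon and MHC class I genes, 4 rose in TN and none fell, while 1 rose and 4 fell in TMem. Irf8 rose in both, by 3.93 ± 0.07 in TN and 1.52 ± 0.07 in TMem. Nlrc5, the activator of MHC class I genes, rose by 0.98 ± 0.17 in TN and fell by 1.23 ± 0.17 in TMem, and Irf1, an interferon response factor, rose by 0.80 ± 0.16 and fell by 1.14 ± 0.16. All 5 were called lower in the difference between the responses, as were 14.7% of all genes. Their median was -1.94 against -0.06 over all genes. In TN mix against alone at 18 h none of the 9 antigen processing genes was called with limma (0 at an unadjusted p under 0.05), and of the 5 factors Irf8 was higher (0.38) and Irf2 (-0.41) and Irf9 (-0.33) lower. Some 0 h arrays were widely spread, with Nlrc5 at 10.31 to 11.26 and Tapbp at 10.35 to 10.995 in TN. Irf1 was at 9.97 to 11.21 in TMem at 0 h. The 18 h arrays alone did not overlap these ranges. For list genes no fit left out a single array, and TN at 18 h and 0 h differ in the Y-linked signal too.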

How the data were processed

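Whole-transcript arrays of 30 sorted T cell samples were analysed, and the number of arrays, 3 a group, limits the precision. The authors deposited log2 probe set values, made with RMA and Partek per the submitters' processing notes, with versions and roles unknown here. The values, from 2.05 to 14.2, were used as deposited. Of 35556 rows, 21789 named 1 gene through the platform annotation, and the 1621 that name several genes and 12146 unnamed here were not used. Of several rows of a gene the one with the highest mean was kept, which left 19938 genes. Detection calls and scan dates were not used here.

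A mean per group was fitted over all 30 arrays with limma 3.58.1 in R 4.3.3 (lmFit, eBayes, two-sided, no block), tested on simulated data first. Where nothing ties repeats to animals, p-values measure the spread between these arrays. The members, the gene lists and the tests were chosen with earlier results of these data known. Always named were Psmb5 to Psmb10, Psme1 and Psme2, then in each comparison the 2 called members of each class with the largest difference, other members where named, and up to 4 called genes of a neighbouring list; further list genes (Tapbpl, Irf2, Irf8 and Irf9 among them) were named after their values were seen. Alternatives covered scaling, arrays in the fit, weights, filters, rows, the replicate block and single arrays left out. Pairing was checked by the correlation of deviations of same-numbered arrays: of 15 comparisons only TN mix against alone at 96 h had every pair over 0.1 (0.489, 0.312 and 0.137), so numbers were taken to pair arrays there.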

Additional observations from a re-analysis of the deposited data

Results flagged for a closer look

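Some results stood out because a test of the difference between 2 cell types or times was itself called. The response to 18 h of stimulation differed between TMem and TN for 20 members (13 to 20 without 1 array) and 28.9% of all genes. It was higher in TMem for Psmd10 (0.86), Psmc6 (0.77), Psmd5 (0.65), Psmb1 (0.64), Psmc5 (0.59), Psmd9 (0.56), Psmd4 (0.52), Psmb6 (0.51), Psmd6 (0.51) and Psmd7 (0.36). It was lower for Psmb9 (-1.13), Psmb10 (-0.73), Psme1 (-0.62), Psmd1 (-0.56), Psme3 (-0.53), Psmb8 (-0.47), Psmd3 (-0.42), Psmb2 (-0.37), Psmb3 (-0.36) and Psmd2 (-0.32).

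The effect of mixed culture at 18 h differed between TMem and TN for 2 members, Psmd7 (-0.48) and Psmd11 (-0.47). For 2 of 43 members this is near the 5.17% of all genes called, so the count says nothing particular about the members. With 1 array left out at a time it was 0 to 2. The effect in TN differed between 96 h and 18 h for 9 members (2 to 12 without 1 array) and 12.4% of all genes. The 9 were Psma2 (-0.72), Psmc5 (-0.72), Psmd6 (-0.70), Psmc2 (-0.62), Psma6 (-0.61), Psmd7 (-0.60), Psmd12 (-0.53), Psmc4 (-0.45) and Psmb4 (-0.40).

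Outside the proteasome genes, 24 of 30 arrays labelled female carried signal of Y-linked genes above every TN alone array of 0 h and 96 h. The response at 18 h and the change of the TN mixing effect, given above, differ in this signal too, and the effects cannot be told apart.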

How the results depend on the processing

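Of 316 named results, 203 were called, and 120 of these kept their call under each alternative run for them. Over 5097 alternatives 372 lost a call, 101 gained one and none reversed a called direction. With array weights the members called were 34 in TN 18 h against 0 h, 32 in TN 96 h against 0 h, 20 in TN 96 h against 18 h, 25 in TMem 96 h against 18 h, 31 and 8 in TN mix against alone at 18 h and 96 h, 20 in TMem against TN alone at 96 h, 14 and 11 in the mix at 18 h and 96 h, 19 and 4 in the mixing effects of TMem minus TN at 18 h and 96 h, and 26 in the TN mixing effect of 96 h minus 18 h. In fits of the groups compared alone they were 6 in TMem against TN at 0 h, 15 and 21 in TN and TMem 96 h against 18 h, 0 in TN mix at 96 h, 17 in TMem against TN alone at 96 h, 8 in the response at 18 h and 9 in the mixing effect at 18 h. With the 0 h arrays left out they were 14 and 17 in TN and TMem 96 h against 18 h, 3 in TN mix at 96 h, 11 and 5 in TMem against TN mix at 18 h and 96 h, 9 in the mixing effect at 18 h and 19 in the TN mixing effect. Centring gave 17 in TMem 96 h against 18 h, 12 in TMem against TN mix at 18 h, 4 in the mixing effect at 18 h and 16 in the TN mixing effect. A further quantile normalization gave 2 in TN mix at 96 h and 2 in TMem against TN mix at 96 h. Leaving out low genes gave 11 in TN 96 h against 18 h, 3 in TN mix at 96 h and 5 in the mixing effect at 18 h, where trend and robust settings gave 4. The cause of these shifts was not tested.

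The replicate block changed the count by over 1.5 times only in the mixing effect at 18 h (1). It gave 18 in TN mix at 18 h and 1 in TN mix at 96 h, also with only those groups fitted, a fit chosen after seeing the data, as was leaving out replicate 1 of both TN alone and TMem alone at 0 h, which gave 14 in TMem against TN at 0 h and 26 in TN 18 h against 0 h.

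Leaving out 1 array at a time, the members called ranged from 13 to 18 in TMem against TN at 0 h, 16 to 26 in TN 18 h against 0 h, 5 to 8 in TN 96 h against 18 h, 15 to 23 in TN 96 h against 0 h, 26 to 29, 7 to 12 and 12 to 17 in the same comparisons of TMem, 13 to 18 and 0 to 2 in TN mix at 18 h and 96 h, 13 to 17 and 5 to 9 in TMem against TN alone at 18 h and 96 h, 5 to 7 in the mix at 18 h, 13 to 20 in the response, 0 to 2 and 0 to 1 in the mixing effects at 18 h and 96 h and 2 to 12 in the TN mixing effect. TMem mix stayed at 0 at both times and TMem against TN mix at 96 h at 1.

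Centring moved the share of higher among all called genes by over 10 points in several comparisons: TMem against TN from 51.2% to 36.7% at 0 h and 57.7% to 32.2% in the mix at 18 h, TN from 46.2% to 35.3% (96 h against 18 h) and 51% to 39.8% (96 h against 0 h), TMem from 51% to 61.6% (18 h against 0 h) and 59.6% to 44.5% (96 h against 18 h), TN mix from 43.6% to 60.1% at 18 h and 65.9% to 49.3% at 96 h, the response from 49.2% to 59.3%, and the mixing effects from 72.2% to 47.3%, 45.7% to 58.5% and 65.7% to 38.7% (TMem minus TN at 18 h and 96 h, and TN). The all-gene median moved by over 0.1 at 0 h (0.02 to -0.08), in TMem against TN mix at 18 h (0.01 to -0.11), in the mixing effect at 18 h (0.04 to -0.06) and in TN (0.07 to -0.06), and with quantile normalization in TN 18 h against 0 h (-0.02 to -0.13) and the response at 18 h (-0.06 to 0.08).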

Other observations

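Ifng, which encodes the interferon that induces the immunoproteasome genes, was looked at after the values of those genes were seen. Its mean level was 6.40 ± 0.47 (SD, n = 3) in TN at 0 h, 10.55 ± 0.18 in TN alone and 11.68 ± 0.08 in TN mix at 18 h, and 10.18 ± 0.09 and 7.87 ± 0.11 at 96 h. In TMem it was 9.17 ± 1.89 at 0 h, with 1 array at 11.36, then 13.16 ± 0.01 alone and 12.93 to 13.14 over the 3 mix arrays at 18 h, and 9.25 ± 0.05 and 9.55 ± 0.04 at 96 h. The groups with the highest Ifng, TMem alone and TMem mix at 18 h, were those with the lowest Psmb8, Psmb9 and Psmb10. No relation between these levels was tested.

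The row naming both Psme2 and Psme2b, which the choice of members left out, was 11.65 ± 0.04 in TN alone at 18 h and 11.20 ± 0.13 in TMem alone at 18 h, and 11.57 ± 0.04 and 10.83 ± 0.07 at 96 h.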
